A study of Homo sapiens with 12 samples.

Results

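The genes named ZNF500 to ZNF899 encode zinc finger proteins that carry no family name beyond a number, and 194 of them passed the rule used here in the MM1S and MM1R multiple myeloma cell lines. Members were the entries of the deposited count table whose symbol lay in that range and which had 10 or more reads in 3 or more of the 12 libraries. The table listed 243 such symbols among 43735 entries, and 193 of the 194 members were among the 14085 genes with enough reads to be tested. ZNF837 was the member left untested, with 0 to 10 reads per library. Of the 49 symbols that were not members, 19 had no read in any library and 38 had at most 3 reads in any one. At the edge of the rule, the third-highest count over libraries was 11 for ZNF723 and 10 for ZNF837, against 9 for ZNF625 and 8 for ZNF844, which stayed outside.

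The 12 libraries came from 4 groups of 3 cultures: untreated MM1S, MM1S with withaferin A (WA), untreated MM1R and MM1R with WA. Both lines come from 1 patient with multiple myeloma, a cancer of plasma cells, and are established lines that differ in their response to glucocorticoids, MM1S being sensitive and MM1R resistant. WA is a plant steroidal lactone that binds cysteine residues of many proteins, and was given at 1 µM for 3 h, whereas the untreated cultures received none. Replicates were cultures of different passage, namely passages 16, 22 and 23 for MM1S and passages 4, 6 and 7 for MM1R, so that the untreated and the WA culture of a line share a passage number while the lines share none. Line and passage therefore cannot be told apart, and p-values measure the spread between cultures of 1 line.

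Between 17625110 and 19368343 reads per library were counted on genes, of which the members took 0.288% to 0.354%. The 8 plasma cell markers examined were all present, with 708 reads or more in every library (CD38 the lowest), whereas COL1A2, a collagen of stroma, had 0 reads. The T cell marker CD3E had 63 to 211 reads and the stroma marker COL1A1 had 9 to 294 reads per library. COL1A1 belonged to a list of 3 stroma markers whose summed level was 3.84 to 4.69 CPM (library-scaled counts per 1000000 counted reads) in untreated MM1R and 6.81 to 20.4 CPM in MM1R with WA, and 2.19 to 4.04 CPM and 3.74 to 8.35 CPM in MM1S, and its part in any result below was not tested.

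Most numbered zinc finger proteins bind DNA through a row of C2H2 fingers, in which a pair of cysteines and a pair of histidines hold a zinc ion. Many begin with a KRAB domain, which recruits the corepressor TRIM28 and, through it, the histone methyltransferase SETDB1 and HP1 proteins, and a large part of this family is known to silence transposable elements. The genes arose by repeated duplication and lie in clusters, above all on chromosome 19. Their mRNAs are known to be short-lived as a class. A KRAB domain was found by pattern in the annotated protein of 124 of 193 members and not in 69, and the remaining member, ZNF720, had no entry in the annotation (GENCODE, GRCh37). The proteins held 0 to 30 fingers of the strict C2H2 pattern, with a median of 10. On chromosome 19 lay 98 members, among them 83 of the 124 with a KRAB domain.

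The promoters of 6 members whose levels differed between lines or with WA are shown, 3 that were lower in MM1R and 3 called with WA, so that the letters counted below can be seen. The sequences are those of RefSeq (GRCh38.p14) upstream of the start site, trimmed to bases before the GENCODE gene and placed in GRCh37 by exact match. Capitals mark GGGCGG (GC box) and CCAAT on either strand. The window of ZNF714 spans chr19:21264759-21264964 (+ strand), that of ZNF716 chr7:57509633-57509882 (+ strand) and that of ZNF675 chr19:23870023-23870264 (- strand), 3 members lower in MM1R. The window of ZNF563 spans chr19:12444535-12444697 (- strand) and that of ZNF699 chr19:9420515-9420764 (- strand), both higher with WA, and that of ZNF639 chr3:179040414-179040663 (+ strand), lower with WA.
ZNF714: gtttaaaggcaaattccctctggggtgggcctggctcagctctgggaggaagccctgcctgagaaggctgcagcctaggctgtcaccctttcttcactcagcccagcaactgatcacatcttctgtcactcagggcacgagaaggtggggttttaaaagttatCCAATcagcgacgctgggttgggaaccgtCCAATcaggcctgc
ZNF716: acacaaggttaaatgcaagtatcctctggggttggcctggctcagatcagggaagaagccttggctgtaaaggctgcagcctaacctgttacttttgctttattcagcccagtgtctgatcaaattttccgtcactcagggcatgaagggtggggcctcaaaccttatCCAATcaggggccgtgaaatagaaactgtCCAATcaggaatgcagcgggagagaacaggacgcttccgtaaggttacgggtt
ZNF675: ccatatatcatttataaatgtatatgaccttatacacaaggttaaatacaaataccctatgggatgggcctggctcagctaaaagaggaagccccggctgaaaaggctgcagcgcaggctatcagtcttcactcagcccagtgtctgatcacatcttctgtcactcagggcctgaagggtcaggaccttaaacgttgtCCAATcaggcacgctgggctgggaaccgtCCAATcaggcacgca
ZNF563: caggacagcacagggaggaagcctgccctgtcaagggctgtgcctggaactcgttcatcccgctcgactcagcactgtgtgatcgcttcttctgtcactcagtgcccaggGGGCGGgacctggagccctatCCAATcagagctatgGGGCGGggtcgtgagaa
ZNF699: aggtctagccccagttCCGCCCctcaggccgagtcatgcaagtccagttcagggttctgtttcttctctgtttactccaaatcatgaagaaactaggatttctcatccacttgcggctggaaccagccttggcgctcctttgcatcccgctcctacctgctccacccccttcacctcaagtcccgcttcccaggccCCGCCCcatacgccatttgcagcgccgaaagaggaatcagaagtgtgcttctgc
ZNF639: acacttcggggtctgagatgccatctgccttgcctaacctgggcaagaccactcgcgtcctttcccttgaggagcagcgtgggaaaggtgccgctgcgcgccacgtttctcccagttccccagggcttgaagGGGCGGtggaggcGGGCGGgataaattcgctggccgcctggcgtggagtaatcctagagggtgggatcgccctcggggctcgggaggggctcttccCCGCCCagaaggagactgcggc

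In the windows of ZNF714, ZNF716 and ZNF675, which lie on chromosomes 19 and 7, CCAAT occurred at 2 places each and GGGCGG at none. Other members lower in MM1R differed from these, as the full window of ZNF616 held GGGCGG at 4 places and no CCAAT, and that of ZNF544 held neither. ZNF563 held GGGCGG at 2 places and CCAAT at 1, ZNF699 held GGGCGG at 2 places, and ZNF639 held it at 3. Over the full 250 bases before the start site, RefSeq gave a sequence for 166 members and for 27305 genes in all. CCAAT was found in 46.4% of the members and 33% of all promoters, and 2 or more copies in 19.9% and 10%. GGGCGG was found in 63.3% of the members and 42.3% of all promoters. The members held a median of 18 CG dinucleotides in this window against 11 over all promoters. All promoters here include those of genes without reads in these cells, whereas the members were kept for their reads. What part this plays in the differences was not tested. GAANNTTC and TTCNNGAA, the arrangements of paired heat shock units, each of which reads the same on both strands and which can overlap, were in 9.04% and 3.61% of the members and in 5.85% and 6.72% of all promoters.

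The members were expressed at low levels. Their mean level over the 12 libraries ran from 0.271 to 159 CPM with a median of 7.58 CPM, against 22 CPM for all tested genes, and 111 members lay under 10 CPM. The median was 5.89 CPM with a KRAB domain and 16.1 CPM without. By reads, ZNF664 led with 159 CPM, followed by ZNF740 with 134, ZNF598 with 96.8, ZNF592, a member of a chromatin complex with ZNF687, with 92.2, and ZNF770 with 89.1. None of the proteins of these leading 5 held a KRAB domain by pattern. Per kilobase of annotated exon, the order changed to ZNF593 (45.7 CPM per kb), a protein known from assembly of the large ribosomal subunit, then ZNF664 (25.1) and ZNF672 (22.9). ZNF593 lies wholly under an annotated gene of the other strand, whose reads cannot be told apart from its own.

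With WA, the members of both lines moved upward as a set by a small amount, few singly by much. Over the 193 tested members of MM1R the log2 fold change had a median of 0.219, against 0.011 over all tested genes, and 138 members (71.5%) had a positive value against 51.3% of all genes. In MM1S the median was 0.184 against 0.015, and 132 members (68.4%) were positive against 51.8%. Low-expressed genes as a whole had positive medians with WA. Each member was therefore set against the other genes in its band of mean expression, with 10 bands of equal size. The members exceeded the median of their band by a median of 0.145 in MM1R and 0.126 in MM1S, and 123 (63.7%) and 122 (63.2%) of them lay above it.

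**Figure D1:**
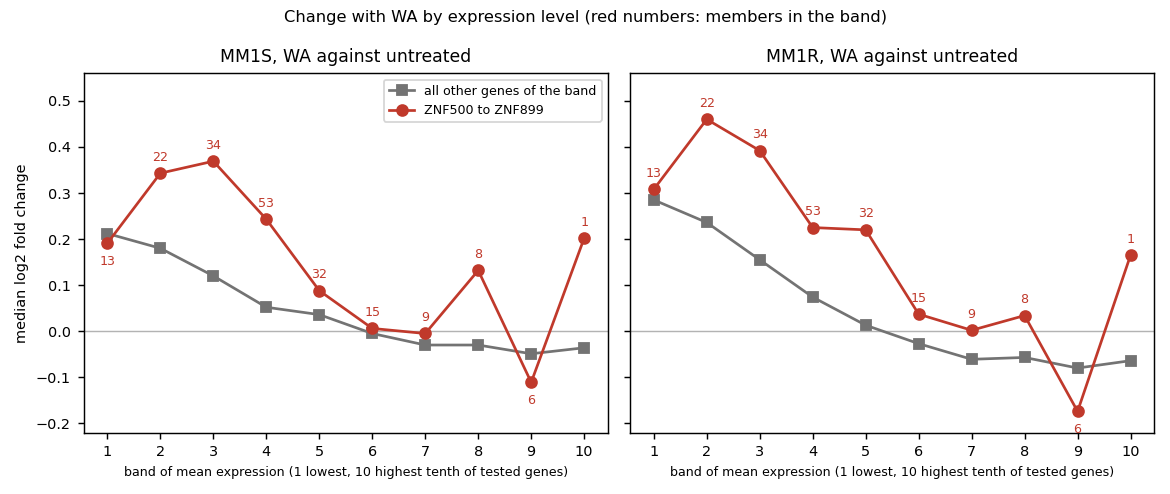
Median log2 fold change with WA (vertical axis) in each of 10 bands of mean expression (horizontal axis), for the members (red, their number beside each point) and all other tested genes (grey), in MM1S and MM1R. The members lay above the other genes in bands 2 to 8 of both lines and below them in band 9, which held 6 members.

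In most bands the members lay above the other genes, with exceptions. In the lowest band the 13 members had 0.191 in MM1S against 0.212 for the others, and in the ninth the 6 members lay lower in both lines. In the third band, from 1.99 to 5.1 CPM, the 34 members had a median of 0.392 in MM1R against 0.155 for the 1375 others, and of 0.369 against 0.12 in MM1S. In the fourth band, from 5.1 to 12 CPM, the 53 members had medians of 0.225 and 0.243 in MM1R and MM1S against 0.074 and 0.052. Above 22.1 CPM the bands held 15 members or fewer each. In bulk RNA, fewer cells that express a gene and less RNA per cell cannot be told apart, and a share of reads can rise where other RNAs fall.

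Every pair of cultures of the same passage showed the shift. On CPM with a pseudocount of 0.5, the median log2 change of the members was 0.19, 0.15 and 0.1 in passages 16, 22 and 23 of MM1S and 0.17, 0.13 and 0.21 in passages 4, 6 and 7 of MM1R, against 0 to 0.02 for all genes and 0.02 to 0.09 for genes of like expression. In all 6 pairs, 66 members (34.2%) were up and 16 (8.29%) were down, where 20% of all tested genes were up and 20% down. The groups did not overlap, with all 3 WA cultures above all 3 untreated ones, for 57 members (29.5%) in MM1R and 53 (27.5%) in MM1S, against 17.3% and 16.4% of all genes. All 3 WA cultures lay below for 15 members (7.77%) in MM1R and 16 (8.29%) in MM1S, against 16.0% and 13.9%.

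Gene by gene, few members passed the test in the fit without passage as a block. In MM1R 16 members rose (8.29%) and 6 fell (3.11%) at an adjusted p under 0.05 by edgeR's quasi-likelihood test, where 7.55% of all genes rose and 6.46% fell. In MM1S 12 rose (6.22%) and 7 fell (3.63%), where 6.25% of all genes rose and 4.23% fell. In that fit the share of members that rose was thus near that of all genes in both lines. With passage as a block, all 22 calls of MM1R and all 19 of MM1S were kept and the counts went to 40 higher and 13 lower in MM1R (20.7% and 6.74%, against 14.7% and 14.4% of all genes) and to 35 and 12 in MM1S (18.1% and 6.22%, against 12.5% and 11.7%). Without the untreated MM1R culture of passage 6 or 7, 7 and 8 members rose in MM1R, and 3 fell without that of passage 7 and 2 without the WA culture of passage 6. In MM1S the rises fell to 5 without the untreated culture of passage 22 or 23 and to 7 without the WA culture of passage 16 or 23 or either MM1R culture of passage 6, and the decreases to 1 to 4 without any of these 4 MM1S cultures or the WA culture of passage 22.

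Of the 22 members called in MM1R and the 19 called in MM1S, 14 were called in both (63.6% and 73.7%), 9 higher and 5 lower, and all 27 called in either line had the same sign in the other. Over all genes, 61% of the MM1R calls and 81.6% of the MM1S calls were called in both, and 2235 of 2245 had the same sign, so the members were like other genes in this. Each line's fold changes came from its own cultures, with 1 estimate of the spread over all libraries. Tested as an interaction, the response of MM1R minus that of MM1S passed an adjusted p of 0.05 for 0 members by edgeR (0 of all 14085 genes) and for 0 by DESeq2. ZNF714 was the 1 member with an unadjusted p under 0.05 by edgeR, where 97 of all genes had one.

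**Figure D2:**
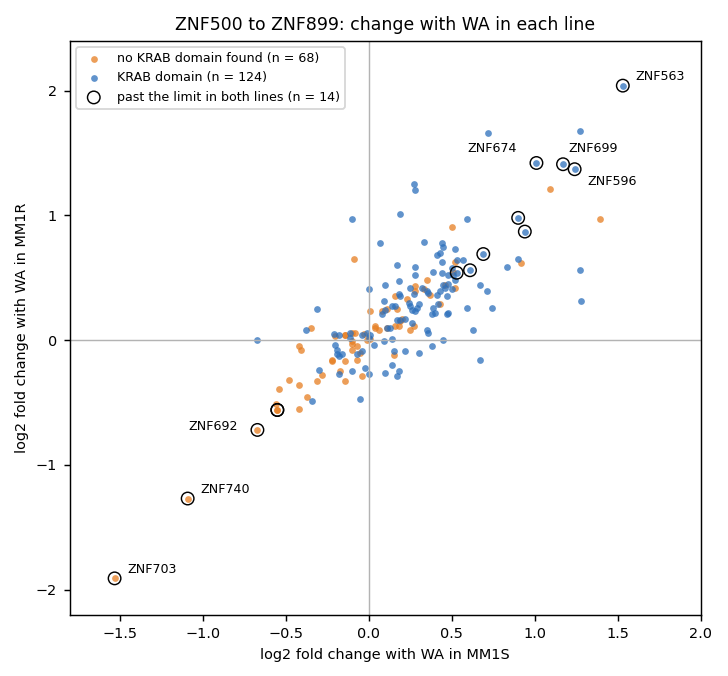
Log2 fold change with WA in MM1S (horizontal) and MM1R (vertical) for the 192 tested members with an annotated protein, with a KRAB domain in blue (n = 124) and without in orange (n = 68), and circles around the 14 members past the limit in both lines. The 9 circled members at the upper right all have a KRAB domain and the 5 at the lower left have none.

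The median shift was higher in the KRAB members. Members with a KRAB domain had a median log2 fold change of 0.281 (MM1R) and 0.282 (MM1S), and 97 and 99 of 124 members were positive. Without one, the medians were 0.054 and −0.035, with 40 and 32 of 68 positive. Against genes of like expression, the KRAB members stood higher by 0.2 in MM1R and 0.228 in MM1S, and those without KRAB by 0.013 and −0.069. Among KRAB members 13 rose and 0 fell in MM1R, and 10 rose and 0 fell in MM1S, whereas without KRAB 2 rose and 6 fell in MM1R, and 2 rose and 7 fell in MM1S. The rises made up 10.5% and 8.06% of the KRAB members, against 7.55% and 6.25% of all genes, and 2.94% of those without KRAB in each line. The falls made up 8.82% and 10.3% of the members without KRAB, against 6.46% and 4.23% of all genes. The remaining rise of MM1R was that of ZNF720, the member without annotation. With passage as a block, 31 KRAB members rose and 1 fell in MM1R, and 28 rose and 1 fell in MM1S. Without KRAB 8 rose and 12 fell in MM1R, and 7 rose and 11 fell in MM1S. Of all genes, 14.7% rose and 14.4% fell in MM1R by this fit, and 12.5% rose and 11.7% fell in MM1S. On chromosome 19 the KRAB members had medians of 0.289 (MM1R) and 0.283 (MM1S), and elsewhere of 0.272 and 0.28. Without KRAB, the 14 tested members of chromosome 19 had medians of −0.162 and −0.178, and the 54 elsewhere of 0.091 and 0.023. These splits are descriptions without a test.

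In each pair of cultures the KRAB median was the higher of both classes. It was 0.26, 0.28 and 0.16 in passages 16, 22 and 23 of MM1S and 0.28, 0.2 and 0.23 in passages 4, 6 and 7 of MM1R. Without KRAB it was 0.06, −0.08 and 0.01, and 0, 0.06 and 0.12.

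ZNF563, a KRAB protein with 10 fingers, had the largest rise of the called members in both lines. It went from 0.777, 1.08 and 0.895 CPM in untreated MM1S (passages 16, 22 and 23) to 2.82, 2.19 and 3 CPM with WA, a log2 fold change of 1.53 ± 0.3 (SE; edgeR adjusted p = 0.0055). In MM1R it went from 0.521, 0.494 and 0.466 CPM (passages 4, 6 and 7) to 1.81, 1.52 and 2.86 CPM, a log2 fold change of 2.04 ± 0.33 (adjusted p = 0.0013). No WA culture overlapped an untreated one, at 8 to 21 reads untreated and 27 to 55 reads with WA. ZNF699, a KRAB protein with 14 fingers related to the fly gene hangover, had 1.97, 2.43 and 2.29 CPM in untreated MM1S and 4.17, 5.34 and 5.51 CPM with WA. In MM1R it had 2.19, 1.7 and 1.52 CPM untreated and 6.24, 4.05 and 4.08 CPM with WA. Its rises of 1.17 ± 0.24 and 1.41 ± 0.25 passed with adjusted p of 0.0076 and 0.0023 (edgeR), again without overlap.

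ZNF596, a KRAB protein with 11 fingers, had 1.14, 1.39 and 1.14 CPM in untreated MM1S and 3.47, 2.24 and 3 CPM with WA. In MM1R it had 1.2, 1.32 and 1.11 CPM untreated and 3.09, 2.81 and 3.53 CPM with WA. The untreated levels of both lines were alike to within 0.28 CPM and all WA cultures stood above them, with log2 fold changes of 1.24 ± 0.25 and 1.37 ± 0.25 (edgeR adjusted p = 0.0065 and 0.003). ZNF674, an X-linked KRAB gene (GRCh37 chrX:46357160-46404892), had 4.87, 4.39 and 3.08 CPM in untreated MM1S and 8.07, 7.58 and 9.22 CPM with WA. In MM1R it had 3.8, 2.96 and 2.68 CPM untreated and 7.2, 7.03 and 11.1 CPM with WA. It rose without overlap by 1.01 ± 0.23 and 1.42 ± 0.24 (edgeR adjusted p = 0.015 and 0.0018). It lost its call in MM1S without either culture of passage 23. An antisense gene overlaps 0.3% of the exon bases of ZNF674, and 10.6% of its 50-base stretches also occur in other annotated transcripts, KRBOX4 first. The strand setting of the counts is not given in the sources used here, so reads of a gene and its antisense partner cannot be told apart where they overlap. The other 5 of the 9 members that rose in both lines, ZNF841, ZNF555, ZNF525, ZNF589 and ZNF621, are KRAB genes too and rose by 0.53 to 0.98.

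For no member called higher in a single line did the test of the difference between lines pass. ZNF763 had 1.67, 1.15 and 1.28 CPM in untreated MM1R and 6.19, 2.98 and 4.02 CPM with WA, a log2 fold change of 1.68 ± 0.45 (edgeR adjusted p = 0.024), and 1.27 ± 0.46 in MM1S (adjusted p = 0.097, and 0.0044 with passage as a block). Of its 50-base stretches 49.2% also occurred elsewhere in annotated transcripts, nearly all in a readthrough gene over it, so that its level is uncertain, and its call was lost without the untreated culture of passage 6 or 7 or the WA culture of passage 4. ZNF761 rose in MM1S from 1.09, 0.827 and 1.24 CPM to 1.84, 2.24 and 3.55 CPM, by 1.27 ± 0.29 (adjusted p = 0.014), and had 0.56 ± 0.28 in MM1R (adjusted p = 0.2). The difference of −0.71 ± 0.4 had an unadjusted p of 0.099 and an adjusted p of 1, and the MM1S call was lost without the untreated culture of passage 22 or the WA culture of passage 23. ZNF714 had the smallest p for a difference between lines, 0.98 ± 0.35 (unadjusted p = 0.015, adjusted p = 1), with a rise of 1.25 ± 0.28 in MM1R (adjusted p = 0.0096) and 0.27 ± 0.21 in MM1S (adjusted p = 0.48). ZNF630 came next with 0.92 ± 0.5 (unadjusted p = 0.089), and its 1.2 ± 0.39 in MM1R had an adjusted p of 0.058, or 0.016 with the block.

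The decreases called with WA without the block lay in members in which no KRAB domain was found. With passage as a block, the KRAB gene ZNF551 fell by 0.49 in MM1R and 0.36 in MM1S (edgeR adjusted p = 0.011 and 0.048). ZNF703, a transcriptional cofactor known from luminal breast cancer that held no finger of the strict pattern, had 17.1, 15.7 and 12.8 CPM in untreated MM1S and 6.5, 4.43 and 4.91 CPM with WA. In MM1R it had 24.2, 19.4 and 15.5 CPM untreated and 5.71, 5.18 and 4.81 CPM with WA. It fell by 1.53 on the log2 scale in MM1S (SE 0.2, edgeR adjusted p = 0.00032) and by 1.91 in MM1R (SE 0.2, adjusted p = 5.6e-05), the strongest fall of any member in both lines, and kept its call in all 20 alternatives run in each line. The groups stood apart, every WA culture lying under 7 CPM and every untreated one above 12 CPM.

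ZNF740 was the second most abundant member, with 201, 211 and 201 CPM in untreated MM1S and 83.9, 128 and 76.9 CPM with WA. In MM1R it had 244, 130 and 122 CPM untreated and 106, 56.9 and 43.6 CPM with WA. The untreated MM1R culture of passage 4 stood apart from the other two, and so did its WA partner, which overlapped none of the untreated cultures. The fall was 1.09 and 1.27 on the log2 scale (SE 0.31 in both, edgeR adjusted p = 0.04 and 0.017), and with passage as a block the adjusted p was 4.6e-05 and 1.6e-05. Without the block, the MM1R call was lost without the untreated culture of passage 4 or the WA culture of passage 6 or 7, and the MM1S call without any MM1S culture but the WA culture of passage 22, or without either MM1R culture of passage 6. ZNF740 overlaps the genes ITGB7 and CSAD on the other strand.

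**Figure D3:**
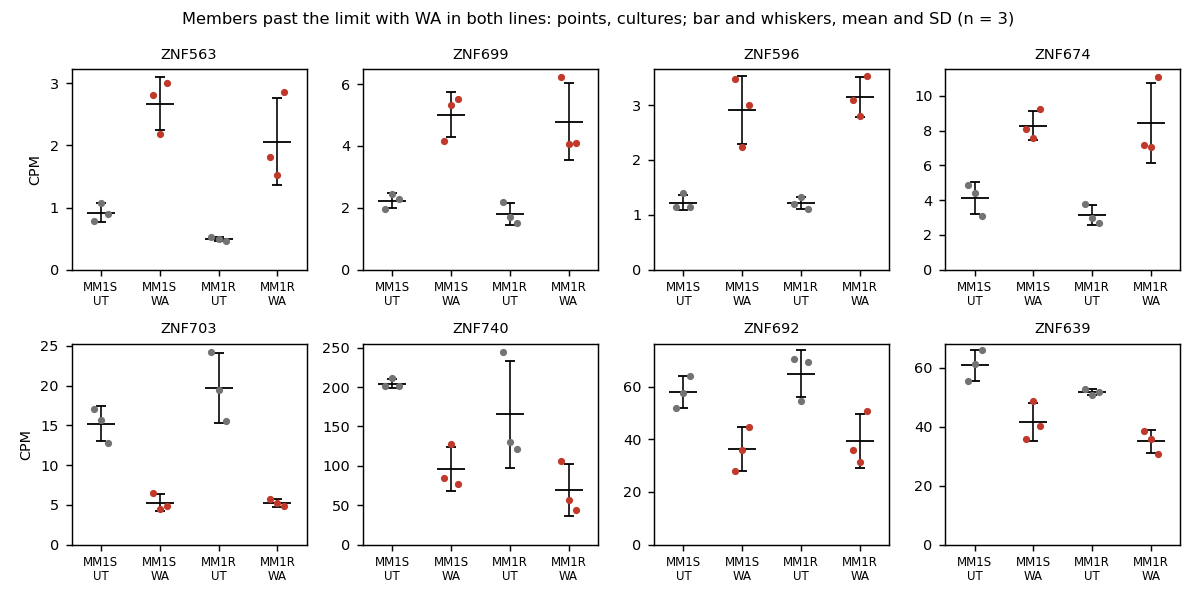
TMM-scaled CPM (vertical axes, from 0) of 8 members past the limit with WA in both lines, in the 3 cultures of each of the 4 groups, with grey points untreated and red points WA, and bars and whiskers for the mean and SD. ZNF563, ZNF699, ZNF596 and ZNF674 stood higher in every WA culture than in any untreated culture of the line, and ZNF703, ZNF740, ZNF692 and ZNF639 lower.

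ZNF692, known as a repressor that responds to AMP-activated kinase signalling, had 51.8, 57.7 and 64.1 CPM in untreated MM1S and 28.1, 36.1 and 44.8 CPM with WA, and 70.6, 54.6 and 69.4 against 35.9, 31.2 and 50.8 CPM in MM1R. Its changes were −0.67 ± 0.19 and −0.72 ± 0.19 (edgeR adjusted p = 0.041 and 0.024). ZNF639 (GRCh37 chr3:179040819-179056371) changed by −0.55 ± 0.13 in MM1S and −0.56 ± 0.13 in MM1R (adjusted p = 0.016 and 0.011), and ZNF628 by −0.55 ± 0.13 and −0.56 ± 0.13 (adjusted p = 0.019 and 0.012). In MM1R the calls were lost without the untreated culture of passage 4 or 7 or the WA culture of passage 4 or 6 (ZNF692), the WA culture of passage 7 (ZNF639), or the untreated culture of passage 7 or the WA culture of passage 6 (ZNF628). In MM1S they were lost without the untreated culture of passage 22 or 23 for all 3, and without the WA culture of passage 16 or 22 or the MM1R WA culture of passage 4 (ZNF692), the WA culture of passage 16 or 23 (ZNF639), or the untreated culture of passage 16 or the WA culture of passage 23 (ZNF628). ZNF710 passed the limit in MM1R (−0.55 ± 0.16, adjusted p = 0.036) and had −0.42 ± 0.16 in MM1S (adjusted p = 0.11, and 0.01 with passage as a block). ZNF511 fell in MM1S (−0.56 ± 0.17, adjusted p = 0.049) and had −0.51 ± 0.17 in MM1R (adjusted p = 0.061, and 0.0038 with the block), with 44.3% of its 50-base stretches shared with a readthrough gene. The ZNF710 call was lost without any MM1R culture but the WA culture of passage 4, and the ZNF511 call without any MM1S culture but the untreated one of passage 16, or without either MM1R culture of passage 6 or the MM1R WA culture of passage 4.

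Among the 4 members whose proteins act on RNA or ribosomes, 1 passed a limit. ZNF598, the ubiquitin ligase that marks collided ribosomes, had 106, 119 and 110 CPM in untreated MM1S and 71.4, 65.6 and 93 CPM with WA, a change of −0.54 ± 0.15 (edgeR adjusted p = 0.031). In MM1R it had 116, 110 and 112 CPM untreated and 83.1, 72.1 and 103 CPM with WA, a change of −0.39 ± 0.15 (adjusted p = 0.09, and 0.024 with passage as a block). The WA cultures lay under the untreated ones in both lines, and the MM1S call was lost without the untreated culture of passage 22 or 23 or the WA culture of passage 16 or 22. ZNF593 changed by −0.28 ± 0.12 in both lines (adjusted p = 0.18 in MM1S and 0.15 in MM1R, and 0.047 in MM1R with passage as a block). ZNF622, a ribosome assembly factor, had 0.16 ± 0.12 in MM1S and 0.35 ± 0.12 in MM1R (adjusted p = 0.46 and 0.071, the latter 0.025 with the block), and ZNF830, a splicing factor, had −0.41 ± 0.14 and −0.08 ± 0.14 (adjusted p = 0.088, or 0.021 with the block, and 0.78).

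Of 14 members listed for a known regulatory role, ZNF703 was the one past a limit with WA in either line. The 4 with the most reads had values on both sides of 0. ZNF592 had log2 fold changes of −0.05 ± 0.1 in MM1S and −0.1 ± 0.1 in MM1R, ZNF652, a partner of corepressors of the ETO family, −0.1 ± 0.11 and −0.03 ± 0.11, and ZNF638, an RNA-binding silencer of unintegrated viral DNA, −0.07 ± 0.12 and −0.05 ± 0.12. ZNF644, a partner of the histone methyltransferases EHMT1 and EHMT2, had 0.37 ± 0.13 and 0.36 ± 0.13 (edgeR adjusted p = 0.095 and 0.087). With passage as a block, ZNF644 passed in both lines (adjusted p = 0.027 and 0.021). Among the most abundant members, ZNF664 had 0.2 ± 0.1 and 0.17 ± 0.1, and ZNF770 0.11 ± 0.13 and 0.1 ± 0.13, none past the limit.

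A list of repressor cofactors had negative medians with WA. Beside TRIM28 and SETDB1 it held wider silencing genes, among them DNMT1 and UHRF1, the ones called in both lines. Of 25 tested cofactors 0 rose and 4 fell in MM1R, with a median log2 fold change of −0.183, and 0 rose and 2 fell in MM1S, with a median of −0.194. The falls made up 16% and 8% of the list, against 6.46% and 4.23% of all genes. Genes of like expression had negative medians too, −0.061 in MM1R and −0.03 in MM1S, and the cofactors lay below their bands by a median of −0.119 and −0.158. DNMT1, the maintenance DNA methyltransferase, changed by −0.61 ± 0.12 in MM1R and −0.59 ± 0.12 in MM1S (edgeR adjusted p = 0.0041 and 0.0063). UHRF1, which brings DNMT1 to replicated DNA, changed by −0.96 ± 0.2 and −0.67 ± 0.2 (adjusted p = 0.007 and 0.048), and its MM1S call was lost without the untreated MM1S culture of passage 22 or 23, the MM1S WA culture of passage 16, or any MM1R culture but the untreated one of passage 4. SETDB1 (−0.36 ± 0.1, adjusted p = 0.026) and MORC2, a partner of the HUSH complex (−0.49 ± 0.13, adjusted p = 0.027), fell in MM1R and had adjusted p of 0.064 and 0.061 in MM1S. Their calls were lost without any MM1R culture but the untreated one of passage 4 (SETDB1), and without the untreated culture of passage 6 or 7 or the WA culture of passage 4 or 7 (MORC2). TRIM28 had −0.31 ± 0.13 in MM1R and −0.26 ± 0.13 in MM1S (adjusted p = 0.12 and 0.23). With passage as a block, 9 cofactors fell and 2 rose in MM1R, and 7 fell and 2 rose in MM1S, where 14.4% and 11.7% of all genes fell, with TRIM28 (adjusted p = 0.0094 and 0.027), SETDB1 and MORC2 among those that fell in both. Those that rose, named after their values were seen, were CHD3 in both lines, ATF7IP in MM1R and MORC3 in MM1S.

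Related genes outside the range moved in the same direction as the members. The 186 other tested ZNF genes with a number had a median of 0.16 (MM1R) and of 0.203 (MM1S), with 24 higher and 6 lower, and 22 higher and 5 lower, and with passage as a block 45 and 11, and 44 and 7. Without the block, 12.9% and 11.8% of them rose, above the 8.29% and 6.22% of the members and the 7.55% and 6.25% of all genes, differences that were not tested. They exceeded their bands of expression by a median of 0.128 and 0.165. The 20 tested ZSCAN and ZKSCAN genes, which encode fingers with a SCAN domain, had medians of 0.299 and 0.374. The 29 tested ZBTB genes had medians of 0.207 and 0.17. Of 72 genes of cytosolic ribosomal proteins, 0 passed the limit by edgeR (2 and 1 at an unadjusted p under 0.05), and with passage as a block 1 rose and 1 fell in MM1R and 1 rose in MM1S, with medians of −0.012 and −0.017 without the block.

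Between the untreated lines, more members stood lower in MM1R than higher. At an adjusted p under 0.01 and a log2 fold change of at least 1 in size (edgeR), 21 members were lower in MM1R (10.9%) and 4 were higher (2.07%), where 1.49% of all genes were lower and 1.48% higher (2.97% in either direction). All 3 MM1R cultures lay below all 3 MM1S cultures for 51 members (26.4%, against 15.7% of all genes) and above them for 49 (25.4%, against 16.6%). The median over members was −0.015 against 0.006 for all genes. Some of these members passed the filter through MM1S alone, such as ZNF605 and ZNF716, which had no reads in MM1R. Of the 21, 12 had 10 or more reads in each untreated MM1R library. Among the 157 members with 10 reads or more in every library, 12 were lower and 1 higher (7.64% and 0.637%, against 1.07% and 0.915% of all such genes). Without the untreated MM1R culture of passage 6, 12 were lower, and the number higher was 0 without the untreated MM1S culture of passage 22 or 23, 9 without that of passage 16, 7 without the MM1S WA culture of passage 16, 1 without the untreated MM1R culture of passage 4 or 6, and 2 without either MM1R culture of passage 7.

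Most of the lower members were KRAB genes. A KRAB domain was found in 19 of the 21, against 124 of all 193 annotated members. The others were ZNF655 and ZNF718, for which the pattern may have missed a domain carried by another isoform. KRAB members also had the lower levels, with a median of 5.89 CPM against 16.1 CPM without KRAB. The KRAB share was not set against members of like expression. Nor was it taken over the 12 of the 21 with 10 or more reads in each untreated MM1R library. Of the 21, 13 lay on chromosome 19, where 98 of all 193 lie, 3 on chromosome 7 and 2 on chromosome 4. In the other direction, the 4 members higher in MM1R were ZNF606, ZNF532, ZNF529 and ZNF514, named after their values were seen. A KRAB domain was found in all of these but ZNF532. In the 6 WA cultures alone, a comparison added after seeing the data, all 25 had the same sign and 13 passed both limits, where 13 of 191 members were lower and 2 higher (0.986% and 1.17% of all genes). The 2 comparisons use different cultures but the same passages.

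ZNF605 and ZNF716 had 0 reads in all 6 MM1R cultures. ZNF605 (GRCh37 chr12:133494892-133532892), a KRAB gene that overlaps CHFR on the same strand, had 81, 60 and 43 reads in untreated MM1S and 37, 45 and 28 with WA. With the floor of 3 reads per library in MM1R, it was at least 19-fold higher in untreated MM1S (edgeR adjusted p = 9.2e-05). ZNF716 (GRCh37 chr7:57509883-57533265) had 24, 20 and 21 reads in untreated MM1S and 23, 26 and 35 with WA, at least 6.7-fold higher than in untreated MM1R (adjusted p = 0.00036). ZNF888 had 29, 44 and 43 reads in untreated MM1S and 1 read in each untreated MM1R culture, with 5, 1 and 4 reads in MM1R with WA. Taking the same floor, it was at least 11.9-fold higher in untreated MM1S (adjusted p = 2.1e-05), and 16.5% of its 50-base stretches occur in other transcripts, ZNF701 first.

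ZNF714 (GRCh37 chr19:21264965-21308073), with 12 fingers, had the smallest p of the members. It had 11.2, 11.7 and 13.8 CPM in untreated MM1S and 1.35, 1.15 and 0.583 CPM in untreated MM1R, a log2 fold change of −3.55 ± 0.26 (edgeR adjusted p = 1.8e-06). With WA it had 13.1, 14.1 and 17.2 CPM in MM1S and 3.04, 1.97 and 2.43 CPM in MM1R, so that the lines stayed apart after its rise in MM1R. ZNF544 (GRCh37 chr19:58739960-58788861) had 102, 145 and 162 reads in untreated MM1S and 2, 5 and 5 in untreated MM1R, and 117, 120 and 102 against 1, 4 and 6 with WA. Its log2 fold change was −4.93 ± 0.4 (adjusted p = 3.9e-06) without overlap. ZNF655, an interactor of the exchange factor VAV1 with 6 fingers and no KRAB domain by pattern, had 4.61, 3.25 and 2.83 CPM in untreated MM1S and 0.416, 0.329 and 0.175 CPM in untreated MM1R (−3.49 ± 0.41, adjusted p = 0.00011).

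**Figure D4:**
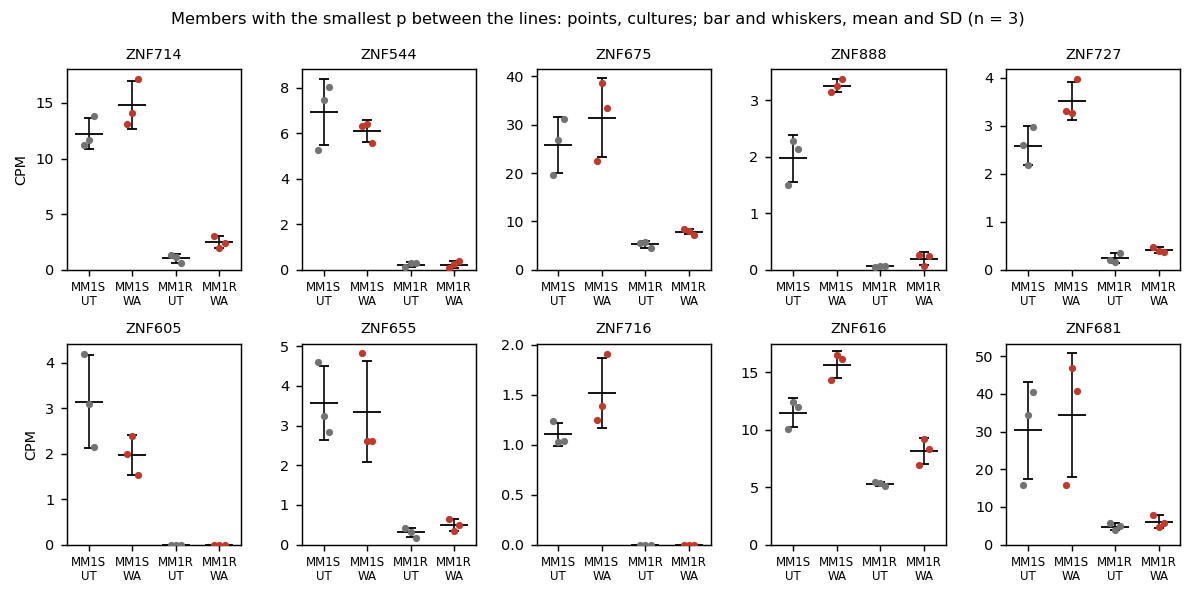
TMM-scaled CPM (vertical axes, from 0) of the 10 members with the smallest p between the untreated lines, in the 3 cultures of each group, with grey points untreated and red points WA, and bars and whiskers for the mean and SD. All MM1R cultures lay below all MM1S cultures in each panel, and ZNF605 and ZNF716 lay at 0 in MM1R.

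ZNF675, an inhibitor of TRAF6 signalling also called TIZ, and ZNF681 were the more abundant of these genes. ZNF675 had 19.6, 26.9 and 31.1 CPM in untreated MM1S and 5.52, 5.65 and 4.43 CPM in untreated MM1R (−2.31 ± 0.22, edgeR adjusted p = 1.8e-05). ZNF681 had 15.9, 34.5 and 40.5 CPM in untreated MM1S and 5.62, 3.84 and 4.84 CPM in untreated MM1R (−2.66 ± 0.4, adjusted p = 0.00084). In MM1S, passage 16 was the lowest for both genes, also with WA. ZNF727 on chromosome 7 changed by −3.4 ± 0.33 (adjusted p = 2.2e-05), from 42 to 60 reads to 3 to 6 reads, and ZNF616 by −1.13 ± 0.16 (adjusted p = 0.00045), from 10.1 to 12.4 CPM to 5.07 to 5.41 CPM.

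The lower members lay together in some clusters of chromosome 19 and not in others. Members less than 1 Mb apart were joined into blocks. Of 5 members in GRCh37 chr19:23015093-24127961, ZNF724, ZNF675, ZNF681 and ZNF726 were lower in MM1R, and the median log2 fold change of the block was −2.53. Of 18 members in chr19:52430400-53999509, 5 were lower (ZNF616, ZNF766, ZNF701, ZNF600 and ZNF888) with a block median of −1.04, and 3 of the 6 other ZNF genes tested there were lower too, with a median of −1. In chr19:19896648-21571384, ZNF506 and ZNF714 were lower among 6 members, with a median of −0.99. The 30 tested members of the block chr19:55987984-58943103 had a median of 0.12, with ZNF544 lower and ZNF606 higher, and the 10 of chr19:11594242-12744654 a median of −0.13 with none past the limits. The 13 of chr19:36673178-38307940 had a median of 0.77, with ZNF875 lower and ZNF529 higher. The 5 other numbered ZNF genes tested there had a median of −0.03, with 0 past the limits. These leave out ZNF585B, whose symbol ends in a letter, which lies in the same block and was lower in MM1R (−3.82, edgeR adjusted p = 0.0028). It was counted with the 4 genes of other names tested there, which had a median of −0.75. In chr19:19896648-21571384 the 7 others had −0.92, with 1 lower, and in chr19:23015093-24127961 the 1 other had 0.48. The 2 genes of other names tested in this last block had a median of −1.71, with 1 lower. In chr19:19896648-21571384 the 1 gene of another name tested, ZNF826P, was lower (−8.91). In chr19:52430400-53999509 the 3 of other names had a median of −0.36, with 0 lower. The 18 of chr19:55987984-58943103 had 0.04, with 1 lower and 1 higher, and the 6 of chr19:11594242-12744654 had 0.44, with 1 higher. Whether the differences belong to the members or to the regions was not tested.

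**Figure D5:**
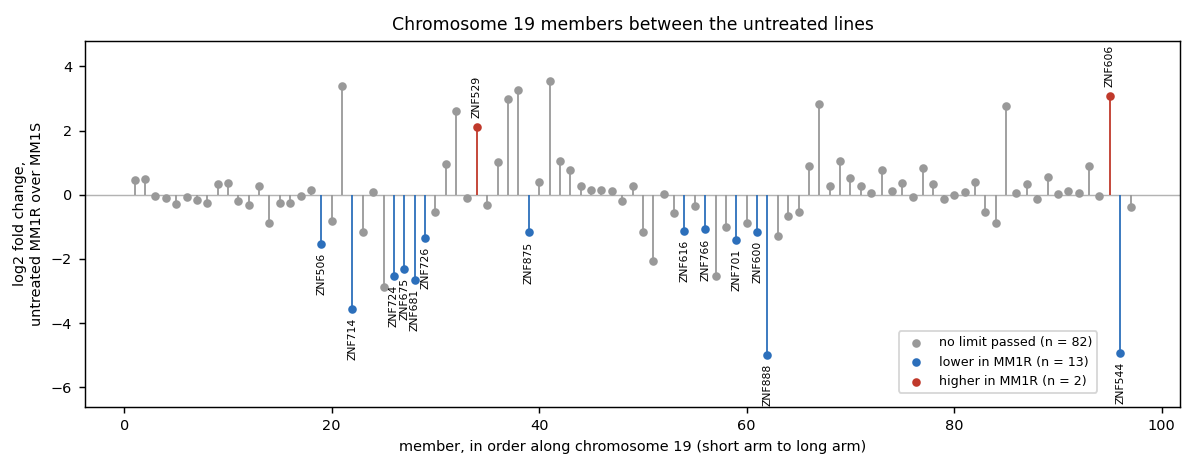
Log2 fold change between untreated MM1R and untreated MM1S (vertical axis) for the 97 tested members of chromosome 19 in their order along it (horizontal axis, rank and not distance), with members past both limits in blue (lower in MM1R, n = 13) and red (higher, n = 2). Of the 5 members from ZNF723 to ZNF726, 4 are blue, and of the 18 from ZNF613 to ZNF813, 5 are.

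With WA the same blocks had positive medians in both lines. The block medians were 0.41 in MM1R and 0.38 in MM1S for the ZNF723 to ZNF726 block, 0.59 and 0.47 for the ZNF613 to ZNF813 block, and 0.41 and 0.47 for the ZNF506 to ZNF738 block, all above the 0.219 and 0.184 of all members. They were 0.06 and 0.06 for the ZNF628 to ZNF584 block and 0.08 and 0.14 for the ZNF565 to ZNF573 block. Those of the ZNF558 to ZNF562 and ZNF653 to ZNF791 blocks were 0.08 and 0.35, and 0.13 and 0.16. The KRAB members of chromosome 19 had 0.289 and 0.283. The change with WA and the difference between lines use the same untreated cultures. A low value in an untreated MM1R culture enters both, so these medians are not independent of the choice of blocks, and no link was tested.

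The members higher in MM1R had few reads in MM1S. ZNF606 had 32, 21 and 13 reads in untreated MM1R and 1, 5 and 2 in untreated MM1S (3.07 ± 0.64, edgeR adjusted p = 0.007). ZNF532, a relative of ZNF592, had 83, 52 and 55 reads against 13, 8 and 9 (2.75 ± 0.46, adjusted p = 0.0016). ZNF529 had 7.6, 8.23 and 7.17 CPM in untreated MM1R and 2.9, 1.34 and 1.04 CPM in untreated MM1S (2.12 ± 0.42, adjusted p = 0.0055), and ZNF514 had 65, 34 and 28 reads against 14, 13 and 9 (1.9 ± 0.39, adjusted p = 0.0068). The groups did not overlap for any of the 4. Among the cofactors, CHD3, a subunit of the NuRD complex, was the 1 of 25 past both limits, with 30.3 ± 6.75 CPM in untreated MM1S and 5.78 ± 0.651 CPM in untreated MM1R (SD, n = 3; −2.39 ± 0.23, adjusted p = 2.1e-05).

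Promoter letters were counted in the called members as well. Of the 21 members lower in MM1R, 17 had a RefSeq window, of which 11 held CCAAT (64.7%) and 7 held it at 2 or more places (41.2%), against 46.4% and 19.9% of all members. GGGCGG was in 10 of the 17 (58.8%), against 63.3% of all members, and the median of the 17 was 13 CG dinucleotides against 18. Most of the 21 are KRAB genes, and KRAB members as a class differed from all members. They held CCAAT in 50.5% of windows, 2 or more copies in 22.9% and GGGCGG in 59.6%. Their median was 16 CG dinucleotides, and the GGGCGG share of the 17 was near theirs. Of the members higher with WA in a line, 14 had a window, of which 12 held GGGCGG (85.7%, against 63.3% of all members). GAANNTTC and TTCNNGAA were in 0 of these 14 windows and in 0 of the 6 windows of members lower with WA. Over all members they were in 9.04% and 3.61%, so sets this small could hold none without differing from the members. The 3 windows ZNF714, ZNF716 and ZNF675 printed above belong to the 7 with repeated CCAAT, and the genes share ancestry, so that they are not independent of each other.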

How the data were processed

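RNA-seq of 12 cultures was analysed, and line, treatment and passage (used as replicate number) were taken from the sample labels. The authors mapped paired-end reads of BGI libraries to hg19 with STAR 2.7.3a after FastQC 0.11.5 and deposited raw counts per gene without normalization. The annotation and strand setting are not given in the sources used here. A further table, the counts divided by 1 size factor per library, was not used. The members and lists were chosen with earlier results of these data known.

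Genes were kept by filterByExpr (minimum count 10), scaled with TMM and tested with edgeR 4.0.16 (quasi-likelihood, 1 fit of 12 libraries, R 4.3.3), with Benjamini-Hochberg adjustment over 14085 genes. WA was called at an adjusted p of 0.05, and lines at 0.01 with a log2 fold change of 1, as in the study. Total counts were 17625110 to 19368343 per library. A fold against a group at 3 reads or fewer is a lower bound, and such limits cover counting error only. Replicate libraries of a group differed by more than counting noise, with a chi-square of 8.74 to 48.7 for each degree of freedom. The tests were checked on simulated counts drawn without a passage effect. The changes put in were larger than the median shifts given here and lay in genes with more reads than the lowest members. Paired cultures, small shifts and changes at the lowest counts were thus not checked.

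Like-expression genes were the other genes in the same of 10 bands of mean log CPM. Gene positions, exons and proteins came from GENCODE (GRCh37) for 193 of 194 members by symbol. Fingers were C, 2 to 4 residues, C, 12 residues, H, 3 to 5 residues, then H or C. Stretches of 50 bases shared with other transcripts were counted. Named genes were, per line, up to 8 falls and 5 rises past the limit with 1 direction in all 3 pairs, the 5 highest levels, the 10 smallest p between lines, the 3 smallest interaction p, 4 RNA and ribosome proteins, regulators past a limit and up to 6 cofactors past a limit.

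Passage pairs the cultures of a line: deviations from group means correlated between same-passage cultures at 0.74, 0.26 and 0.49 (MM1S passages 16, 22 and 23) and 0.43, 0.22 and 0.25 (MM1R passages 4, 6 and 7). The highest correlation with another passage was −0.47, 0.35 and 0.42, and −0.2, −0.09 and 0.11, which for MM1S passage 22 is above the same-passage value. As the labels give the shared passage and every same-passage value is over 0.1, a fit with passage as block was run. Alternatives were RLE size factors, no TMM factor, other count filters, DESeq2 1.42.0, only the 6 libraries compared, other limits, 20 bands, and each library left out.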

Additional observations from a re-analysis of the deposited data

How the results depend on the processing

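Among refits of the named genes, 760 kept the direction and the side of the limit, 77 kept the direction and lost the call, and 0 reversed. The cause was not tested. With passage as replicate block, members higher and lower were 40 and 13 in MM1R and 35 and 12 in MM1S. At an adjusted p of 0.01 they were 7 and 1 in MM1R and 3 and 1 in MM1S. With no TMM factor, 7 members rose in MM1S, the MM1S median was 0.122, and 2 members were higher in MM1R than in MM1S. Those MM1R-higher members numbered 13 with no filter on low counts, 1 with 10 reads in every library, 7 by DESeq2 and 2 in the WA libraries. Members lower in MM1R numbered 12 with 10 reads in every library, where fewer genes were tested, and 13 in the WA libraries. With the 6 MM1S libraries alone, 7 rose in MM1S.

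With 1 library left out, members higher ran from 7 to 22 and lower from 2 to 7 in MM1R, higher from 5 to 14 and lower from 1 to 8 in MM1S, and between lines higher from 0 to 9 and lower from 12 to 22. The member median ran from 0.144 to 0.246 in MM1R and from 0.155 to 0.23 in MM1S, and its excess over genes of like expression from 0.119 to 0.165 and from 0.091 to 0.179. Interaction calls stayed at 0. The block could not be fitted for untreated MM1R against MM1S, whose lines share no passage. The scaling moved the median of all genes by at most 0.057. With 1 to 6 reads of ZNF544 in each MM1R library, a change with WA was not detectable at this depth.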
